A study of Mus musculus with 10 samples.

Results

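The Tbx3 and Tbx5 locus is the stretch of mouse chromosome 5 that holds both T-box genes and 250 kb on either side, chr5:119420534-120135220 in mm10, the sequence build of GRCm38. Its members are the ATAC-seq peaks whose summit lies in that window, and they were chosen by position around genes picked because peaks near them were gained in the Smchd1 del/del lists. The differences between del/del and fl/fl lists given here are therefore a description of the values that chose the locus, with no test. The 4 deposited peak lists hold 72 such peaks of 423900 on the chromosomes used. They number 25 in del/del females, 19 in fl/fl females, 16 in del/del males and 12 in fl/fl males, and merge into 31 regions.

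T-box genes encode transcription factors that share a DNA-binding domain, the T-box. Tbx5 is needed for formation of the heart and the forelimb, and Tbx3 for the cardiac conduction system, the limb and the mammary gland. The pair lie beside each other in mammals and are flanked here by Rbm19, which encodes an RNA-binding protein of ribosome assembly. Smchd1 is a chromatin protein known for silencing on the inactive X chromosome and at some clustered autosomal genes. In ATAC-seq the Tn5 transposase inserts adapters into accessible DNA, and a peak is a place where insertions pile up above the local background.

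Tbx3 spans chr5:119670534-119684724 and Tbx5 spans chr5:119796514-119885220 in the RefSeq table of GRCm38.p6, which gives no strand. The lower end of a gene means its smaller coordinate in what follows. The window holds an end of 16 genes, 3 of them protein-coding and 13 long noncoding. The noncoding ones are Gm31314, AW549542, Tbx3os1, Gm16063, Gm16064, Tbx3os2, Gm42017, Gm5563, Gm31773, Gm38554, Gm42018, Gm42019 and Gm10390. The promoter table of RefSeq (GRCm38.p6, 250 bases before to 50 after a start) had 11 entries inside the window, for 10 of these genes, with none for Tbx3 or Tbx5. Peaks covered 2 of the 11, the starts of Tbx3os2 (minus strand, chr5:119691169-119691468) and Rbm19 (plus strand, chr5:120116263-120116562). Both are printed 5′ to 3′ because they are the annotated starts at which a peak can be read against sequence. Capitals mark the bases that lie under the peak in every list that has one there, 141 bases in 3 lists for Tbx3os2 and 286 bases in 4 lists for Rbm19.
Tbx3os2: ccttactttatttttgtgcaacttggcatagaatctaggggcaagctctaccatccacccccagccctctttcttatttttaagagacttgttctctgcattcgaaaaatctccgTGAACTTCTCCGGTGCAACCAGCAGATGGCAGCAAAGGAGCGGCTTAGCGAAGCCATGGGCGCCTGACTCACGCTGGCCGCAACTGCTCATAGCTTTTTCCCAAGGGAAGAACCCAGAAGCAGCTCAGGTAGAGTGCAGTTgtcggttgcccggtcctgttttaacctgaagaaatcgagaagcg
Rbm19: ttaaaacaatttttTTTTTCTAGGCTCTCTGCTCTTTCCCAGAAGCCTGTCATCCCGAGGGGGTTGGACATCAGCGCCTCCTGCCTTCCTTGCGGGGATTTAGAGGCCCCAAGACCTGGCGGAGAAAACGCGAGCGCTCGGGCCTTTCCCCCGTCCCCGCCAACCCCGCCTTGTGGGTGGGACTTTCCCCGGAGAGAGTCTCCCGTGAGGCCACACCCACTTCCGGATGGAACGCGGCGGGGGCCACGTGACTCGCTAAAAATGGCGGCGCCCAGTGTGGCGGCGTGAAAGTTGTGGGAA
The Tbx3os2 sequence holds 12 CpG dinucleotides and the Rbm19 sequence 23, where the median promoter of the 32851 in the table holds 7. The T-box sequence TTCACACCT, searched on both strands with its reverse complement AGGTGTGAA, was in 0 of the 11 window entries and in 0.271% of all entries. Its shorter form TCACACCT, which the longer one contains, was in 0 of the 11 and in 1.28% of all.

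The cells were C57BL/6 neural stem cells, grown as lines from E14.5 embryos whose Smchd1 alleles were both floxed. The groups were 3 del/del and 3 fl/fl female libraries and 2 del/del and 2 fl/fl male libraries, where del/del means that both alleles were deleted. Per the labels' protocols, Cre came from the retrovirus MSCV-Cre-puro, puromycin followed from 24 h, and cells were harvested at 7 days. The same text stands with all 10 samples, so the labels do not tell if fl/fl cells were transduced. The control label reads wild-type beside the genotype fl/fl. Male samples carry the word female in their description, while their title and sex field, which were followed, read male.

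Peaks were called once per group on all its libraries together, and no spread between replicates can be given. The lists rest on 139318421 tags in del/del females, 144613215 in fl/fl females, 74674218 in del/del males and 91734730 in fl/fl males, and hold 104316, 130103, 88159 and 101322 peaks in that order of lists. A peak's rank is its place in its list by the authors' −log10 q, where 1 is the strongest. Lists were brought to one length, the 88159 strongest peaks of each. A peak is called gained when it is among the 44079 strongest of the del/del list and overlaps none of the 88159 of the fl/fl list, and lost in the reverse case. The peak at an end of Smchd1 ranked 754 in del/del and 597 in fl/fl females, and 271 in del/del and 1226 in fl/fl males. The labels do not say which exon was removed, so this does not check the deletion. Of 12 neural stem cell markers, 10 had a peak within 1 kb of a gene end in del/del females, 10 in fl/fl females, 11 in del/del males and 11 in fl/fl males. The share of all genes with such a peak is not given here, so nothing about cell type is read from these counts.

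At equal list length the locus held 18 peaks in del/del females against 11 in fl/fl females, and 16 in del/del males against 9 in fl/fl males. Among the 44079 strongest of each list it held 9 against 4 in females and 8 against 4 in males. The peak at the Rbm19 end was held by all 4 lists. Of the strong del/del peaks of the locus, 2 of 9 were gained in females, where 1.13% of all 44079 candidates were, and 3 of 8 in males, where 0.837% were. The 2 peaks gained in females were also gained in males, a class that held 0.306% of all candidates. None of the 4 strong fl/fl peaks was lost in either sex, against 0.44% of all candidates lost in females, 1.09% in males and 0.0318% in both. Since gained peaks chose the locus, nothing is read from these shares. In pooled cells, a site open in more cells and a site more open per cell cannot be told apart.

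**Figure D1:**
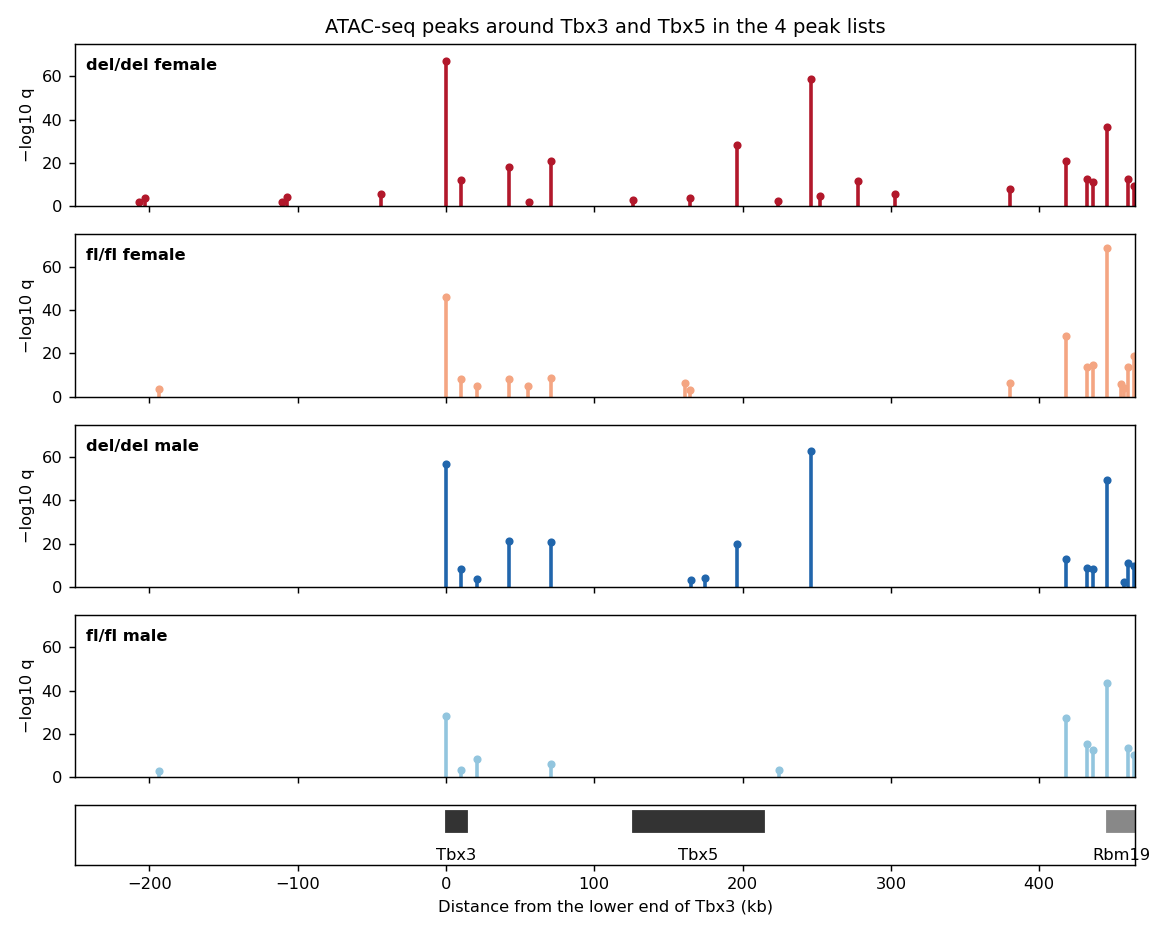
Peaks of the locus in each list, with the distance of the summit from the lower end of Tbx3 in kb on the horizontal axis and the authors' −log10 q on the vertical axis. The peaks near 196 and 246 kb stand in both del/del lists and in neither fl/fl list. Most of the group near Rbm19 stands in all 4, except the peaks near 455 and 457 kb.

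The strongest gained peak lay 31.4 kb beyond the upper end of Tbx5, outside any annotated gene, at chr5:119916481-119917237 in del/del females and chr5:119916518-119917209 in del/del males. It ranked 5678 in del/del females with a fold enrichment of 7.28, and 4322 in del/del males with 10.1. Neither fl/fl list held a peak there at any strength, and the nearest one was 80.9 kb away in fl/fl females and 21.5 kb away in fl/fl males. The summits in the del/del lists were 11 bp apart, and the peak measured 757 bp in del/del females and 692 bp in del/del males. The median width of gained peaks was 297 bp in females and 252 bp in males, and that of all candidates was 476 bp and 441 bp. By rank this peak was number 4 of the 500 gained in females and number 1 of the 369 gained in males.

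A second gained peak lay inside Tbx5, 18.2 kb from its upper end, at chr5:119866381-119867295 in del/del females and chr5:119866857-119867300 in del/del males. Its rank was 20627 in del/del females and 27619 in del/del males, with fold enrichments of 5.67 and 6.03. No fl/fl list held a peak there, and the nearest were 30.8 kb away in fl/fl females and 27.4 kb away in fl/fl males. The peak was 915 bp wide in del/del females and 444 bp in del/del males. The wider female peak reached further towards the lower end of Tbx5, and the summits lay 61 bp apart.

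At Tbx3 itself the main peak was present in all 4 lists and stood higher in both del/del lists. It covers the lower end of Tbx3, from 119670214 to 119671094 over the lists, and also lies within the noncoding gene Tbx3os1, which overlaps that end. It ranked 3814 in del/del females against 15608 in fl/fl females, and 5606 in del/del males against 24328 in fl/fl males. Its summit pileup, the number of extended tags stacked at the summit, was 135 in del/del females against 91 in fl/fl females, and 99 in del/del males against 57 in fl/fl males. The del/del males were above the fl/fl males although their list rests on fewer tags. Scaled to 100000000 tags these are 96.9 against 62.9 in females and 133 against 62.1 in males.

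The fold enrichments of the Tbx3 end peak were closer, 7.35 in del/del against 7.3 in fl/fl females, and 8.75 in del/del against 6.94 in fl/fl males. MACS2 divides the pileup by a local background taken over 10000 bp, which includes the tags of the peak itself, with 1 added to both. The lowest such divisor, 12.6 in fl/fl females and 8.36 in fl/fl males, equals the value expected from the number of tags in the list. The same holds in the del/del lists, at 12.2 in females and 6.99 in males. A local background below that value therefore does not show in the divisor. At the Tbx3 end the divisor, the background with its added 1, was 1.52 times the lowest of the list in del/del females. It was 1.63 times the lowest in del/del males, and at the lowest in both fl/fl lists. Other locus regions, such as the inner Tbx3 peak, were at the lowest in both fl/fl lists too. Such a difference, at least 1.3 times the lowest in the del/del list and within 2% of the lowest in the fl/fl list, was found at 0.0171% of all regions shared in females and 0.0807% in males. These limits were set after the values at the Tbx3 end had been seen, so the shares are a description and support nothing about that region. The reverse was found at 0.0103% and 0.0232%. The Tbx3 end was the 1 region of the locus with it in either sex. Under the gained peak beyond Tbx5 the divisor was 1.34 times the lowest in del/del females and 1.4 times in del/del males, with no fl/fl value to compare. At the Rbm19 end it was 1.39 times in both female lists and 1.4 times in both male lists, so such values also occur in fl/fl lists.

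To compare regions that both lists of a sex hold, the ratio of pileup per tag was taken and centred on the median of all shared regions, which was -0.19 on the log2 scale over 87641 regions in females and 0.03 over 73153 in males. This ratio was added after the data had been seen. A region is called higher or lower at 1.5-fold. The Tbx3 end peak had a centred log2 ratio of 0.81 in females and 1.06 in males. With fold enrichment in place of pileup per tag it was 0.14 and 0.37, under 1.5-fold in both sexes.

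A second peak inside Tbx3, from 119680414 to 119681017 and 4.17 kb from its upper end, was weaker and also in all 4 lists. Its rank was 45597 in del/del against 78275 in fl/fl females, and 53934 in del/del against 94959 in fl/fl males. Fold enrichments were 3.69 against 3.17 in females and 4.09 against 2.75 in males. Its centred log2 ratio was 0.54 in females and 0.61 in males, and the fl/fl female list split it into 2 peaks. It was 589 bp wide in del/del females and 603 bp in del/del males, against 150 bp in fl/fl males.

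Between the genes lay a pair of sites that were higher in the del/del lists. The peak from 119741172 to 119741432, 55.2 kb below Tbx5, ranked 28442 in del/del against 75134 in fl/fl females and 26161 in del/del against 76842 in fl/fl males. Fold enrichments were 4.93 against 3.25 in females and 6.44 against 3.35 in males. All 4 summits fell within 9 bp, and the centred log2 ratio was 0.81 in females and 0.97 in males.

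The peak from 119712909 to 119713192, 28.3 kb above Tbx3, ranked 32499 in del/del against 78276 in fl/fl females, a centred log2 ratio of 0.74. In males it ranked 25646 in del/del with a fold enrichment of 6.39 and was not in the fl/fl list, so it was gained there. It was not gained in females because the weaker fl/fl peak stood inside the 88159 strongest. The 3 summits lay within 5 bp.

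The peak at the start of Tbx3os2, whose sequence is printed above, was not higher in the del/del lists. It was not in the del/del female list, and ranked 105784 in fl/fl females with a fold enrichment of 2.62. In males it ranked 82282 in del/del against 63574 in fl/fl, with fold enrichments of 2.89 against 3.83 and a centred log2 ratio of -0.37. A weak peak from 119726088 to 119726328 was held by the female lists alone, at rank 103788 in del/del and 105785 in fl/fl, with a ratio of -0.11. The fl/fl female list is the longer one, and the −log10 q there was 2.1 in del/del against 4.71 in fl/fl females.

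**Figure D2:**
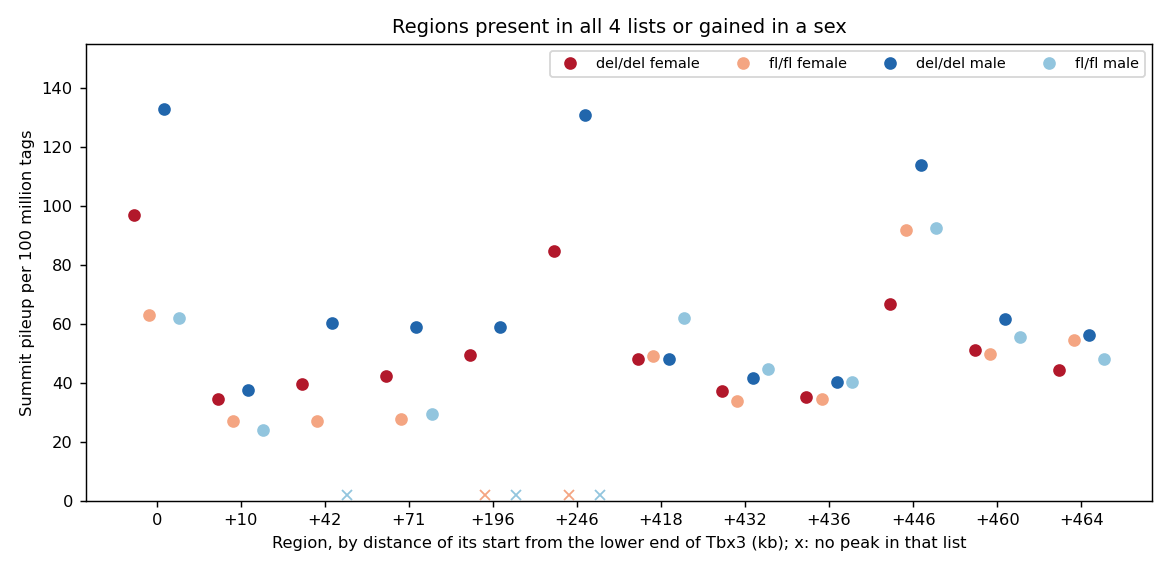
Summit pileup scaled to 100000000 tags (vertical axis) of the 12 regions that are in all 4 lists or gained in a sex, by their distance from the lower end of Tbx3 in kb; dots are lists and crosses mark lists with no peak. From 0 to 71 kb every del/del dot is above the fl/fl dot of its sex where that list has one, and from 418 kb on the order varies.

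Inside Tbx5 the other peaks were weak. The peak from 119835127 to 119835599 ranked 88886 in del/del females, 123595 in fl/fl females and 82418 in del/del males, with fold enrichments of 2.45, 2.3 and 2.74, and was not in the fl/fl male list. A peak 0.345 kb from the lower end of Tbx5 was in the del/del female list alone, at rank 100572 with a fold enrichment of 2.3. Single lists also held the peak from 119845102 to 119845261, at rank 77541 in del/del males, and the peak from 119831399 to 119831616, at rank 92687 in fl/fl females. No list had a peak within 1 kb of the upper end of Tbx5.

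Below Tbx3 the del/del female list held 5 peaks, at ranks from 75953 to 103787 and with fold enrichments from 2.14 to 2.83. The strongest of these lay within Tbx3os1 and Gm16063, from 119626799 to 119626967. In the same 250 kb the fl/fl lists held 1 peak each, at one site from 119476896 to 119477236, and the del/del male list held 0. Beyond Tbx5, 3 more weak or middling peaks were in del/del females alone, at ranks 82766, 46801 and 75442. The one at rank 46801, from 119948538 to 119948724 with a fold enrichment of 3.78, fell just outside the 44079 strongest, so it could not be called gained. The del/del peaks at ranks 43996 and 44000, both near Rbm19, fell just inside it and overlapped fl/fl peaks. A peak 9.63 kb above Tbx5 was in del/del females at rank 102627 and in fl/fl males at rank 94960.

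Around Rbm19 the order of the del/del and fl/fl lists varied from site to site. The peak at the lower end of Rbm19 ranked 14509 in del/del against 6389 in fl/fl females, and 7914 in del/del against 13847 in fl/fl males. Its fold enrichments were 5.55 against 7.64 in females and 8.77 against 7.37 in males. The centred log2 ratio was -0.27 in females and 0.26 in males, so the sexes differed in direction. The peak from 120088562 to 120088894, 27.8 kb below Rbm19, ranked 28604 in del/del against 29452 in fl/fl females and 38854 in del/del against 25429 in fl/fl males. Despite the near ranks in females, its −log10 q was 21.1 in del/del against 28.0 in the longer fl/fl list. All 6 regions from there to the upper edge that were in 4 lists had centred ratios between -0.40 and 0.33. Inside Rbm19, the peak from 120125327 to 120125558 was in fl/fl females alone, at rank 94256 with a fold enrichment of 2.44. The peak from 120127703 to 120127990 was in fl/fl females at rank 115986 and in del/del males at rank 87013, and in no other list.

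Over the locus, 3 of the 13 regions shared by the female lists were called higher in del/del and 0 lower, where 1.88% of all shared regions were higher and 0.534% lower. In males 3 of 10 were higher and 0 lower, where 1.66% of all were higher and 2.41% lower. The locus was chosen for its gained del/del peaks, so nothing is read from these shares. The median centred log2 ratio was 0.64 over the 6 female regions up to the upper end of Tbx5, ranging from -0.11 to 0.81. Over the 7 beyond that end it was 0.22, from -0.27 to 0.36. In males it was 0.79 over 4 regions, from -0.37 to 1.06, and 0.04 over 6, from -0.40 to 0.26. The cut at the upper end of Tbx5 was not planned in advance, so the contrast is a description. The strongest gained peak, 31.4 kb beyond that end, has no ratio because no fl/fl list holds it. The called regions were the Tbx3 end and the site 55.2 kb below Tbx5 in both sexes, with the site 28.3 kb above Tbx3 in females and the inner Tbx3 peak in males. The same measure over all shared regions has a median of 0 by construction and an SD of 0.24 in females and 0.28 in males. It drifted with strength, with a female median of 0.19 in the weakest of 20 bins by pileup per tag and -0.06 in bin 12. Centred within bins, the weak female peaks from 119835127 and 119726088 had 0.29 and -0.31, against 0.48 and -0.11 before. The Tbx3 end then had 0.84 in females and the site 55.2 kb below Tbx5 had 0.86.

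**Figure D3:**
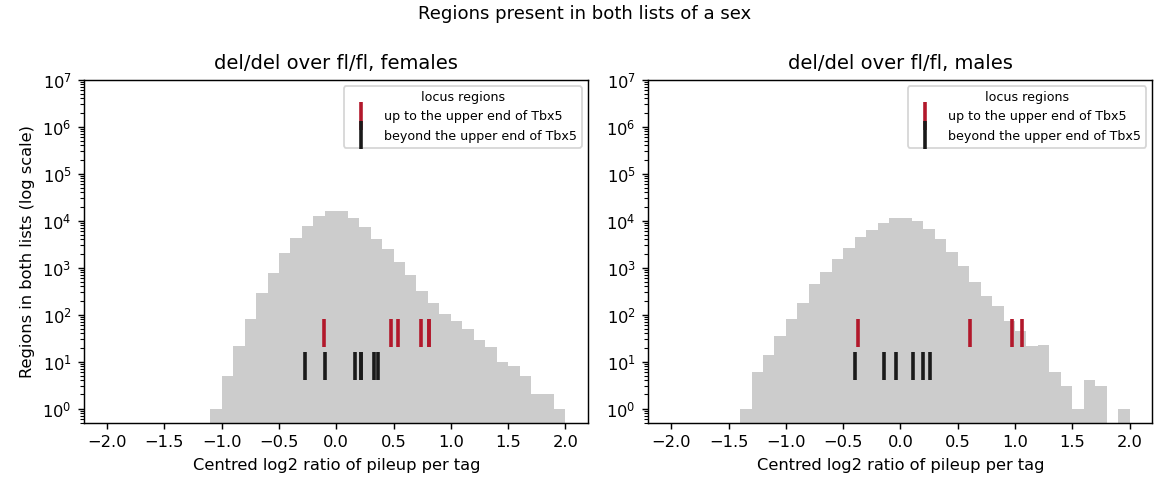
Centred log2 ratio of pileup per tag, del/del over fl/fl, for all regions shared by the lists of a sex (grey bars, log scale), with the locus regions as ticks whose height carries no value. Most ticks up to the upper end of Tbx5 lie to the right, at 0.48 to 0.81 in females with 2 of them at 0.81 and at 0.61 to 1.06 in males, and those beyond it lie between -0.40 and 0.36. The cut at that end was not planned in advance.

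The lists of one genotype were then compared between the sexes. For the del/del lists this is not independent of how the locus was chosen, since the peaks gained in both sexes are among the strong del/del peaks. None of the 9 strong locus peaks of del/del females was missing from del/del males, and none of the 8 of del/del males was missing from del/del females. Over all candidates these shares were 0.948% and 0.49%. The 4 strong peaks of fl/fl females were all in fl/fl males and the reverse also held, where 0.132% and 0.111% of all candidates were missing. With so few candidates, 0 missing is near what those shares give, and it shows no more than that the strong peaks recurred in both sexes.

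By position, the del/del female list held 5 peaks below Tbx3, 2 inside it, 3 between the genes, 3 inside Tbx5, 10 between Tbx5 and Rbm19 and 2 inside Rbm19. The fl/fl female list held 1, 3, 4, 2, 5 and 4, the del/del male list 0, 2, 3, 3, 5 and 3, and the fl/fl male list 1, 2, 2, 0, 5 and 2. Of the 31 merged regions, 12 were in del/del lists alone, or 38.7%, where 9.67% of all 150516 regions were. In fl/fl lists alone there were 3, or 9.68%, where 26.7% of all were, and in all 4 lists 9, or 29.0%, where 45.5% of all were. The choice of the locus used this contrast, and nothing is read from these shares. The 12 comprised 9 of del/del females, 1 of del/del males and the 2 that both del/del lists held, and 6 of the 9 regions in all lists lay from 120088562 upward.

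**Figure D4:**
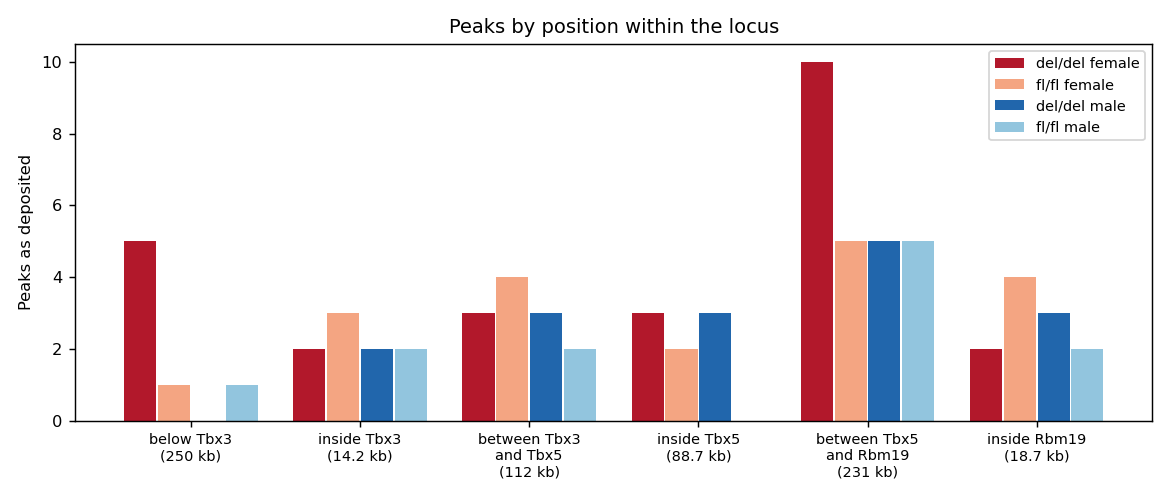
Number of peaks as deposited (vertical axis) in each stretch of the locus, whose length in kb stands under it, for the 4 lists. The fl/fl males have no bar inside Tbx5, and the del/del females have the highest bars below Tbx3, at 5, and between Tbx5 and Rbm19, at 10.

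The upper edge of the window falls among peaks that all lists hold. Just inside it, at about 1 kb, the peak ranked 55355 in del/del and 42892 in fl/fl females and 48804 in del/del and 56024 in fl/fl males. Just outside it, at 11.0 kb, the peak ranked 34197, 45539, 24373 and 35974 in the same order of lists. At the lower edge the nearest outer peak was 30.4 kb away in del/del and 30.5 kb in fl/fl females and 19.7 kb in del/del and 49.4 kb in fl/fl males. The nearest inner peak was 42.8 kb away in del/del females and 56.6 kb in both fl/fl lists, and in del/del males it was the peak at the Tbx3 end. The nearest gained peak outside the window lay 252 kb below it in females and 253 kb in males, 26.3 kb from the noncoding gene Gm7538, with fold enrichments of 6.55 in del/del females and 7.63 in del/del males. Above the window the nearest one lay 928 kb away, in both sexes, 52.9 kb from an end of Rph3a. Of the 135 sites gained in both sexes over the genome, 20 were on chromosome 5, with 2 in the locus. Chromosome 5 held 2618 of the 44079 candidates in del/del females and 2635 in del/del males. It held 50 of the 500 peaks gained in females and 37 of the 369 gained in males. With 2553 of the candidates in fl/fl females and 2543 in fl/fl males, it held 5 of the 194 lost in females and 22 of the 481 lost in males. Most gained peaks of this chromosome thus lay outside the locus.

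The rest of the T-box family was looked at in the same way, each gene with 250 kb on either side. Around the 15 genes other than Tbx3 and Tbx5, 2 of 190 strong del/del peaks were gained in females, or 1.05%, and 1 of 190 in males, or 0.526%. These shares lie near those over all candidates, 1.13% and 0.837%. The 1 site gained in both sexes lay 105 kb from Tbx15, a T-box gene of skeleton and skin, at chr3:99459032-99459403 in del/del females, with fold enrichments of 5.42 in del/del females and 4.72 in del/del males. The other lay 170 kb from Mga in females. In each of the windows of Tbx2 and Tbx4, which overlap, 2 of 17 strong fl/fl peaks were lost in females and 1 of 13 in males. In males 1 of 10 was lost around Tbx20 and 1 of 2 around Tbx22. The other T-box windows held no lost peak, and none was lost in both sexes. Over all candidates 0.44% were lost in females and 1.09% in males. So few lost peaks are not a result about the family. Mga, Tbx2, Tbx4, Tbx20 and Tbx22 are named after their values were seen.

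Other regulators of heart and limb were counted over their bodies and 5 kb on each side. The 18 heart genes held 23 strong peaks in del/del females and 22 in del/del males, and 0 were gained in either sex. Of their strong fl/fl peaks, 0 of 25 were lost in females and 1 of 22 in males, at Mef2c. The 18 limb genes had 0 of 32 strong del/del peaks gained in females and 1 of 32 in males, at Hoxd13. Of their strong fl/fl peaks, 0 of 33 were lost in females and 1 of 30 in males, at Gli3. Against the shares over all candidates, 1.13% gained and 0.44% lost in females and 0.837% gained and 1.09% lost in males, lists of this size would hold 0 or 1 such peak, so these counts are not a result about the lists. Both lists include Tbx2 and Hand2. Of 8 cardiomyocyte markers, 4 had a peak at a gene end in del/del females, 3 in fl/fl females, 4 in del/del males and 5 in fl/fl males. Of 8 markers of limb and other mesenchyme the numbers were 6, 6, 6 and 4, and of 6 endothelial and blood markers 4, 4, 4 and 3. For these end peaks too the share over all genes is not given, and nothing about cell type is read from them. Over the 34 markers, 0 of 78 strong del/del peaks were gained in females and 0 of 81 in males, and 1 of 79 strong fl/fl peaks was lost in females, at the neural stem cell marker Nfia, and 0 of 81 in males. These counts too are near the shares over all candidates. Mef2c, Hoxd13, Gli3 and Nfia are likewise named after their values were seen. The part of cell makeup in the locus values was not tested.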

How the data were processed

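ATAC-seq was run on 10 libraries in 4 groups. Peaks came from MACS2 (2.1.0.20140616, per the file headers), run without a control on the merged alignment of a group, with a shift of 75 bp, an extension of 150 bp, 1 tag kept per position and a q-value limit of 0.05. The submitters' processing notes list build mm10 and, with no roles, Bowtie2 2.2.5, Trim Galore 0.4.0, edgeR, Picard, MACS2, bcl2fastq and SAMtools. The deposited pileup is a signal height, the deposited fold enrichment a ratio over local background, and strength is the deposited −log10 q of the authors. Pileup per tag was computed here for regions shared by 2 lists. The tag size was 63, 53, 59 and 62 bp in del/del females, fl/fl females, del/del males and fl/fl males, and depth differed too.

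Autosomal, X and Y peaks were ranked by −log10 q, then −log10 p, then file order. Ties at the limits make the number of gained and lost peaks depend slightly on that order. Overlap meant 1 shared base pair. No p-value was computed, because each group has 1 list. The calling code was checked on copies of 1 real list with planted gains and losses. The other peaks kept their coordinates, so this says nothing about how calls hold between real lists. The locus, the gene lists and the tests were chosen with earlier results of these data known. Named were Tbx3, Tbx5, each region gained in a sex, each gene with an end in the window, and listed genes with a peak gained in both sexes. Sequences of the gained peaks were not used here. Alternatives covered list length, threshold, ranking, margin, overlap, flank and merging. Python 3.11.15, pandas 2.3.3, numpy 2.4.6 and matplotlib 3.10.9 were used.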

Additional observations from a re-analysis of the deposited data

Results flagged for a closer look

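At 5 regions held by all 4 lists, the centred log2 ratio of del/del over fl/fl pileup per tag had opposite signs in females and males. None of these differences was tested, since each group has 1 list. All 5 lie on the Rbm19 side of the locus. The region from 120088562 to 120088894 had 0.16 in females and -0.4 in males. The region from 120102732 to 120103144 had 0.33 and -0.14, and the region from 120106494 to 120106789 had 0.22 and -0.04. The Rbm19 end, from 120116250 to 120117065, had -0.27 in females and 0.26 in males, and the region from 120134097 to 120134334 had -0.1 and 0.2. Without centring, the first of these had -0.03 in females and -0.37 in males, so the signs no longer differed. With fold enrichment in place of pileup per tag, the first 3 were negative in both sexes, the Rbm19 end had -0.33 and 0.28, and the last region -0.25 and 0.01. With centring within 20 bins of strength, the region from 120106494 had 0.25 and 0.0.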

How the results depend on the processing

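The gained peaks 31.4 kb beyond Tbx5 and inside Tbx5 were called in both sexes when peaks were ranked by pileup. The other settings could not have removed them, since the nearest fl/fl peak of either site is 21.5 kb away. That holds for the limit of 10 on −log10 q too. The peak beyond Tbx5 had 58.6 in del/del females and 62.6 in del/del males, and the one inside Tbx5 had 28.3 and 19.7. The peak 28.3 kb above Tbx3 was called in females only at a −log10 q of at least 10. Counts moved more. With all peaks as deposited, 12 locus peaks were gained in females and 6 in males, 5 were lost in females and 2 in males, and fl/fl females held 19 peaks. At a −log10 q of at least 10, 6 were gained in females and 4 in both sexes, 1 was lost in females and 3 in males, and the locus held 8 peaks in del/del males and 7 in fl/fl females. Without the margin, 8 were gained in females and 7 in males. With a flank of 100 kb the locus held 10 peaks in del/del and 5 in fl/fl females, and 9 in del/del and 3 in fl/fl males. With 500 kb it held 36, 26, 38 and 25 in that order. Around the other T-box genes, 0 peaks were gained in females and 0 in males at 100 kb. Regions in fl/fl lists alone numbered 0 at equal list length. The shared regions called higher numbered 2 or 3 in each sex under the 3 added alternatives, and 0 were lower, but not the same regions. The site 55.2 kb below Tbx5 was called in both sexes under all 3. The Tbx3 end lost its call in both sexes with fold enrichment (0.14 and 0.37). The site 28.3 kb above Tbx3 lost it in females without centring (0.55), and the inner Tbx3 peak in males within bins of strength (0.58). The cause of these shifts was not tested. No paired analysis was possible because each group has 1 list pooled over its libraries, and for the same reason no replicate could be left out. The shallower male lists make weak peaks there less reliable.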
